A study of Mus musculus with 34 samples.

Results

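Expression of 10 genes of the trophectoderm, the outer epithelium of the blastocyst that gives rise to the placenta, was followed from the zygote to the blastocyst in single mouse embryos. They were taken by symbol: the transcription factors Cdx2, Eomes, Elf5, Gata3, Gata2, Tfap2c and Tfap2a, the keratins Krt8 and Krt18, and the receptor Fgfr2. All 10 had a row in every table, out of 49686 genes listed for zygotes and late 2-cell embryos and 51734 for blastocysts. The embryos came from a study of perturbation of the DNA damage checkpoint, in which mRNA for the checkpoint kinase CHK1 was injected into zygotes and single embryos were sequenced after SMART-seq2 amplification. The WT groups received mRNA for wild-type CHK1 and the R442Q groups mRNA for a mutant form, so every embryo was injected. Zygotes numbered 5 in WT and 6 in R442Q, late 2-cell embryos 4 and 5, and blastocysts 7 in either group. Zygotes and late 2-cell embryos are labelled as untreated, whereas all 14 blastocysts had been cultured with a CHK1 inhibitor at 30 nM. Blastocysts grown without the inhibitor and uninjected embryos were not analysed here. The labels give neither strain nor parents, and nothing says that the embryos of a group came from separate litters, so p-values measure the spread between single embryos only.

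The trophectoderm is set apart from the inner cell mass by cell position. In outer cells Hippo signalling is low, YAP1 and WWTR1 (TAZ) enter the nucleus, and with TEAD4 they switch on Cdx2, while Gata3 lies in parallel downstream of TEAD4. TFAP2C acts upstream of this step, and CDX2, EOMES and ELF5 later hold the trophoblast stem cell state. FGFR2 receives the FGF4 made by inner cells, and keratins 8 and 18 pair into the first intermediate filaments of the embryo, anchored at desmosomes of the new epithelium.

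A zygote library held 7183632 to 11296522 counts, and a late 2-cell library 5727956 to 8916343. The depth of blastocysts in counts is unknown, as only FPKM was used for them, in which fragments are scaled by transcript length and library size. Between 11440 and 12410 genes reached an FPKM of 1 in zygotes, 11984 to 16211 in late 2-cell embryos and 8189 to 12191 in blastocysts, the lowest being R442Q replicate 7. The sum of FPKM in late 2-cell embryos had a mean ± SD of 733250 ± 14091 over 4 WT and of 893448 ± 62796 over 5 R442Q embryos, so at this stage FPKM and CPM, counts scaled by library size alone, can order the genotypes differently.

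Positions are from GENCODE M21 (GRCm38). Krt8 (ENSMUSG00000049382.10, chr15:101996698-102004482, minus strand) and Krt18 (ENSMUSG00000023043.7, chr15:102028180-102032027, plus strand) are neighbours, with 23697 bases and 0 annotated genes between them. Of the 50-base stretches of Krt8 transcripts, 29.7% also occurred in other genes, its pseudogene Krt8-ps and the opposite-strand gene Gm36026, so Krt8 levels are less certain than those of Krt18, where 0.720% did. For Tfap2a (ENSMUSG00000021359.16, chr13:40715302-40738376) the share was 10.2%, with Gm26688, Gm47061 and Gm47067 on the opposite strand, and whether the counting used strand is not given in the sources used here. The remaining members were Cdx2 (ENSMUSG00000029646.3, chr5:147300805-147307270), Eomes (ENSMUSG00000032446.14, chr9:118478212-118486132), Gata3 (ENSMUSG00000015619.10, chr2:9857078-9890034), Gata2 (ENSMUSG00000015053.14, chr6:88193891-88207032), Elf5 (ENSMUSG00000027186.14, chr2:103411688-103450989), Tfap2c (ENSMUSG00000028640.11, chr2:172549593-172558622) and Fgfr2 (ENSMUSG00000030849.18, chr7:130162451-133123350). Eomes overlaps the opposite-strand gene Gm33460, and Gata3 overlaps Gm13256 and 4930412O13Rik on the opposite strand and 9230102O04Rik on its own. The annotated span of Fgfr2, 2960900 bases, takes in many other genes.

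Promoters from RefSeq (GRCm38.p6), reaching from 250 bases before to 50 bases after the start, were held for 9 of the 10 members in 12 promoters. They were searched on both strands for the motifs of 3 factor families of the trophectoderm. The TFAP2 motif GCCNNNGGC was in 4 of the 12 promoters, 1 each of Cdx2, Gata2, Gata3 and Krt18, against 16.6% of 32851 mouse promoters of the same length. Those 4 promoters were 57.3%, 73.7%, 67.3% and 61.3% G or C, above the median of 52.7% over all promoters, and no comparison at matched GC content was made. The GATA motif AGATAA was in that of Krt8, against 11.2% of all promoters, and the TEAD motif GGAATG in those of Elf5 and Gata2, against 14.7%. The 250 bases before the start are shown for Cdx2, the lineage's defining factor, and for Gata3, Krt8 and Krt18. Capitals mark the motif matches, which did not overlap each other, and each sequence runs 5′ to 3′ along the gene's own strand. The windows are chr5:147307250-147307499 (minus strand) for Cdx2, chr2:9878601-9878850 (minus) for Gata3, chr15:102004343-102004592 (minus) for Krt8 and chr15:102027966-102028215 (plus) for Krt18.
Cdx2: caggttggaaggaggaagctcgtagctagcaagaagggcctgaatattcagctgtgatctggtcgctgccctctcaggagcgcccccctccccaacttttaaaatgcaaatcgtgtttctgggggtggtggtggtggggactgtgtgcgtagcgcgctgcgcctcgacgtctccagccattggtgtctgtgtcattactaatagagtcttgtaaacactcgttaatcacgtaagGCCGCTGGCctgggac
Gata3: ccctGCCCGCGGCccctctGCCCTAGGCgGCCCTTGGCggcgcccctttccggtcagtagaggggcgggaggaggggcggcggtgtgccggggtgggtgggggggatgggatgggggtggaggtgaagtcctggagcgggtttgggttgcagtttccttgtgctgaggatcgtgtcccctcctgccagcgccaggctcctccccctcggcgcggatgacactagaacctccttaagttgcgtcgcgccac
Krt8: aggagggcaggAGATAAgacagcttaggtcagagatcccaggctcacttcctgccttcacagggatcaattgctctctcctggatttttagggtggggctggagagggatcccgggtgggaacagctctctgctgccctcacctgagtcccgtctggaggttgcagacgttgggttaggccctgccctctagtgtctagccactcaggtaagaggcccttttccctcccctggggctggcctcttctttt
Krt18: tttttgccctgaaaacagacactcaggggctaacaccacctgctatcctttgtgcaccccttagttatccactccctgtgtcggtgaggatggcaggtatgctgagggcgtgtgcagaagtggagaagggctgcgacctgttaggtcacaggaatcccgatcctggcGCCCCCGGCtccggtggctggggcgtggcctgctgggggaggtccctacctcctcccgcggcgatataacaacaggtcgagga
Gata3 carried 3 matches to the TFAP2 motif, close together at the far end of its window, and Cdx2 and Krt18 carried 1 each. The adjoining keratin genes shared no motif of the 3 in these windows.

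Across the stages the members fell into genes present from the start and genes that appeared later. In zygotes Tfap2c, Gata3 and Fgfr2 stood at a mean FPKM of 26.5 ± 4.02, 11.8 ± 1.54 and 9.80 ± 2.91 (SD, n = 11), ranks 3218, 5155 and 5673 among all listed genes. The other 7 members each had a mean FPKM under 3 there, with Krt18 at 2.54 ± 2.25 and Krt8 at 1.19 ± 0.711. In late 2-cell embryos the order was Tfap2c at 31.9 ± 14, Krt18 at 18.3 ± 11.4, Fgfr2 at 9.31 ± 5.90, Krt8 at 6.28 ± 5.63, Gata2 at 4.39 ± 2.88, Gata3 at 1.91 ± 1.86 and Eomes at 1.56 ± 1.03 (SD, n = 9). Neighbours in this order lay within their spread of each other. Cdx2 was at 0 counts in all 9 late 2-cell embryos, and Elf5 in 8 of them.

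In blastocysts the keratins were the most abundant members. Krt18 reached a mean FPKM of 4158 ± 3195 and Krt8 3126 ± 2785 (SD, n = 14), ranks 23 and 38 of 51734 genes, followed by Gata3 at 303.2 ± 155. Tfap2c at 43.6 ± 19.9, Fgfr2 at 22.2 ± 10.7, Gata2 at 19.0 ± 14.5, Cdx2 at 15.7 ± 13.5 and Eomes at 10.7 ± 5.62 came next, the ranges of neighbours overlapping. Elf5 at 5.58 ± 4.54 and Tfap2a at 3.82 ± 2.76 were lowest. For Krt8, Krt18, Gata3, Eomes and Cdx2 (at 0.21 FPKM or more against 0) the lowest blastocyst stood above the highest late 2-cell embryo, although the stages' tables were normalised separately and these levels are set side by side without a test. Tfap2c ranged from 20.16 to 33.94 in zygotes, from 12.46 to 53.33 in late 2-cell embryos and from 12 to 79.87 in blastocysts, and so overlapped at all stages.

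**Figure D1:**
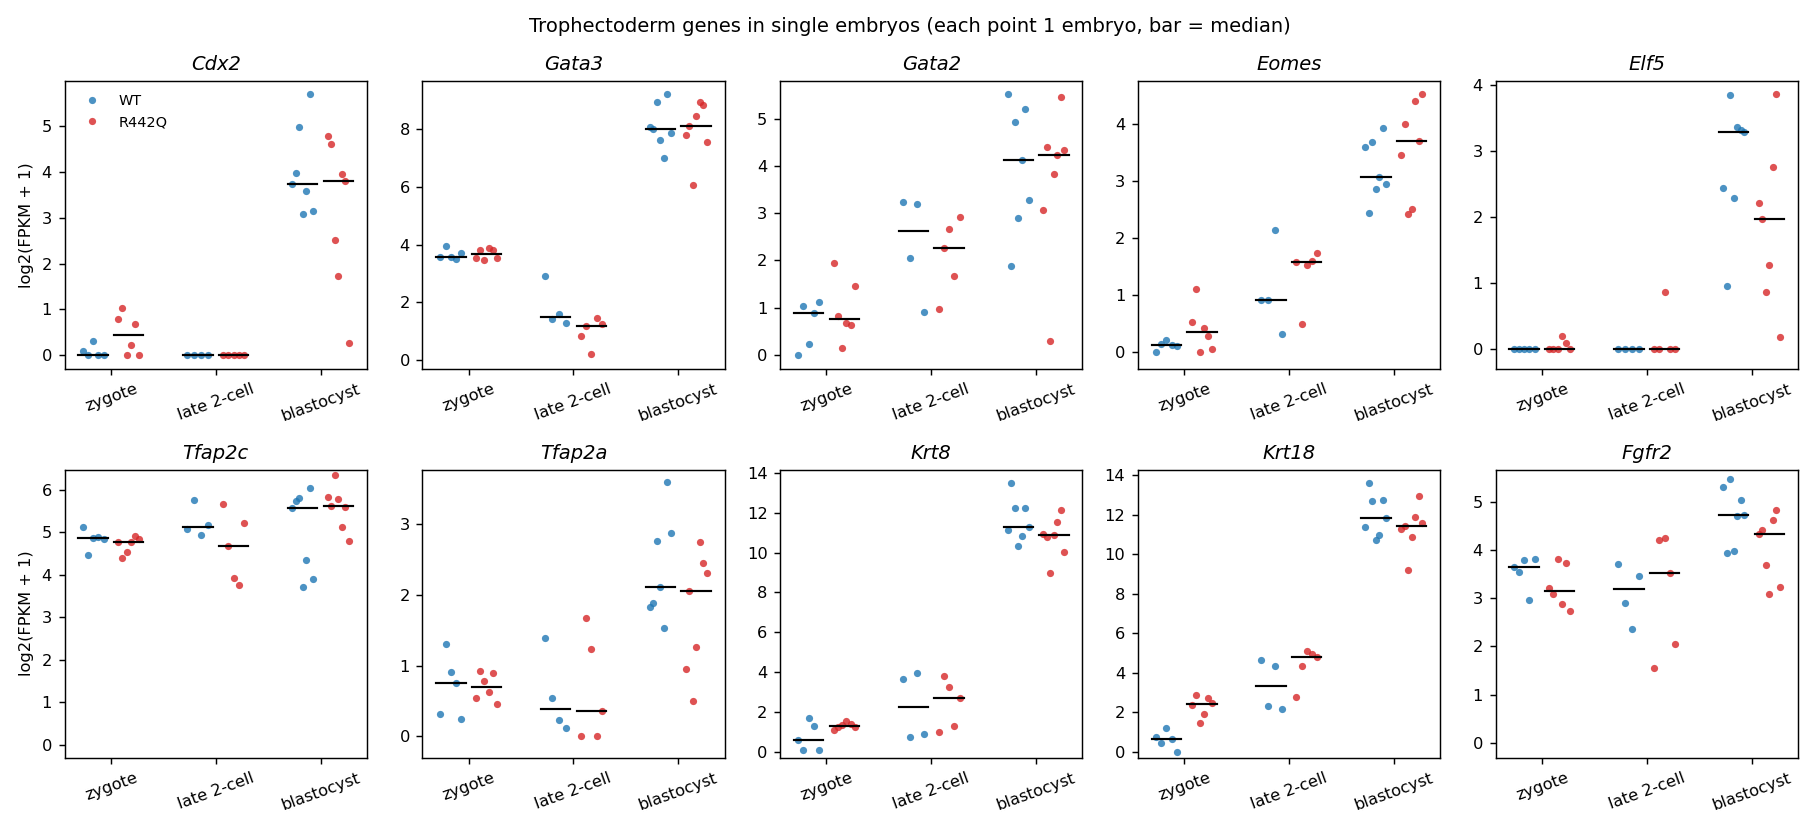
Level of each of the 10 trophectoderm genes, as log2(FPKM + 1) on the vertical axis, in zygotes, late 2-cell embryos and blastocysts; each point is 1 embryo, blue WT and red R442Q, and bars are group medians. Tfap2c and Fgfr2 are present at all 3 stages, Gata3 is lowest in late 2-cell embryos, and Krt8 and Krt18 reach FPKM means of 3126 and 4158 in blastocysts.

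The first comparison asked whether mutant CHK1 altered these genes in zygotes, before most embryonic transcription. Krt18, the type I keratin of simple epithelia, was higher in R442Q zygotes. Its counts in WT replicates 1 to 5 were 7, 4, 13, 5 and 0, and in R442Q replicates 1 to 6 they were 39, 58, 21, 30, 67 and 66. Every R442Q zygote therefore lay above every WT zygote, at 5.34 ± 2.16 CPM (SD, n = 6) against 0.728 ± 0.603 CPM (SD, n = 5). The log2 fold change was 2.99 ± 0.59 (SE) with an adjusted p of 0.0033 (edgeR's quasi-likelihood test, Benjamini-Hochberg over all genes tested). Of the 7 members with enough counts to be tested, Krt18 alone passed, while 13.2% of all 12420 genes did, 6.3% upward and 6.92% downward. In the same comparison 9.39% of genes had genotypes that did not overlap. The level itself was low, since the highest zygote held 67 Krt18 counts of 9388919.

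Krt8, the type II partner of Krt18, had counts of 7, 1, 32, 19 and 1 in WT zygotes and 15, 18, 26, 29.75, 27 and 28 in R442Q zygotes. The R442Q values lay close together, within the WT range, and the log2 fold change was 0.93 ± 0.66 with an adjusted p of 0.404 by the same edgeR test. Summed FPKM of 10 cumulus cell markers, which can adhere to eggs, was 1.29 to 2.80 in WT and 0.74 to 4.63 in R442Q zygotes. Amh was listed at 0 in all 11 zygotes and Ptx3 in 5 of 5 WT and 5 of 6 R442Q. Tnfaip6 had a median FPKM of 0 in WT and 0.65 in R442Q, and 2 of the 10 markers were at 0 in every WT and 1 of 10 in every R442Q zygote. DESeq2, which tested 5 of the markers, called Tnfaip6, and edgeR called 0 of 2 tested, with 0 at an unadjusted p under 0.05. Genes detected at an FPKM of 1 numbered 11440 to 11836 in WT and 11614 to 12410 in R442Q zygotes. The part of these measures in the Krt18 result was not tested.

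**Figure D2:**
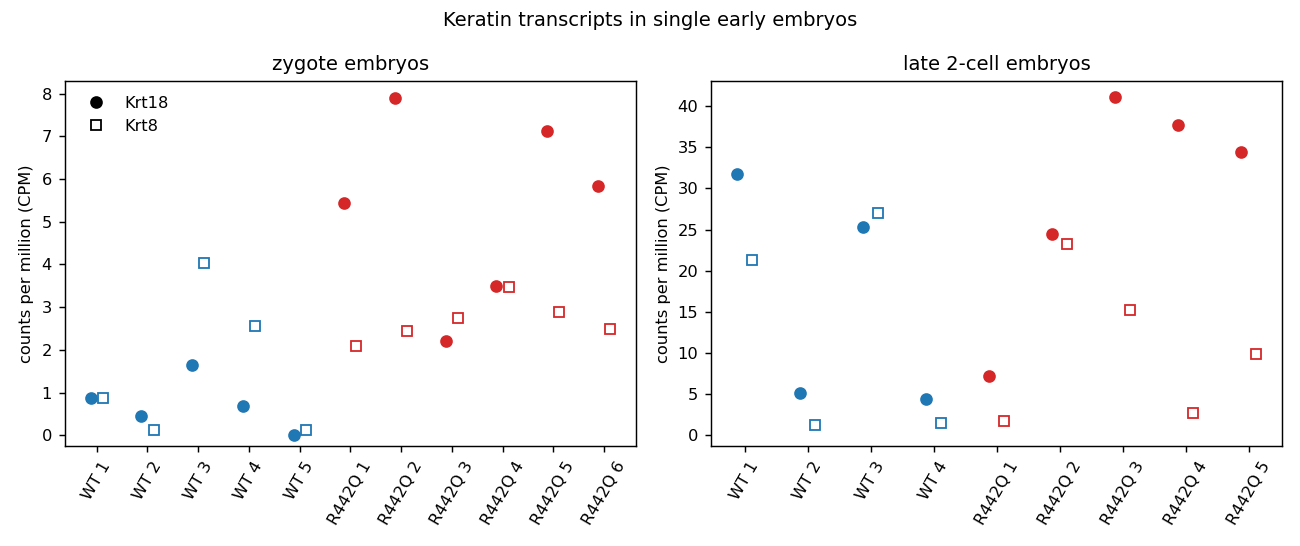
Krt18 (filled circles) and Krt8 (open squares) in CPM for each zygote (left) and each late 2-cell embryo (right), blue WT and red R442Q, on separate vertical scales. In zygotes Krt18 averages 5.34 CPM in R442Q and 0.728 CPM in WT with no overlap, whereas Krt8 overlaps; in late 2-cell embryos both keratins overlap between genotypes.

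The 3 members already abundant in zygotes did not differ between the genotypes beyond the spread between embryos. Tfap2c, an AP-2 factor, had counts of 722, 487, 594, 564 and 654 in WT and 501, 398, 562, 607, 741 and 831 in R442Q zygotes. Its log2 fold change was -0.01 ± 0.14 (edgeR adjusted p 0.979), and its sign turned with size factors by relative log expression (0.0030). Gata3, a zinc finger factor, had 269, 380, 264, 240 and 332 counts in WT against 239, 297, 293, 364, 380 and 367 in R442Q, a log2 fold change of 0.15 ± 0.14 (adjusted p 0.554 by the same test). Fgfr2 had 224, 187, 157, 134.29 and 228.1 counts in WT and 132, 143, 235, 153, 283 and 140 in R442Q (log2 fold change -0.02 ± 0.21, adjusted p 0.971). These 3 genes had the smallest SE of the members tested.

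The remaining zygote values were close to the limit of counting. Gata2 had 0 to 25 counts in WT and 2 to 61 in R442Q zygotes (log2 fold change 1.07 ± 0.78, edgeR adjusted p 0.417). Tfap2a had 3 to 29 counts in WT and 9 to 22 in R442Q (0.21 ± 0.53, adjusted p 0.846). Cdx2 had 1, 0, 4, 0 and 0 counts in WT zygotes and 11, 16, 0, 3, 12 and 0 in R442Q zygotes, and Eomes, a T-box factor, had at most 4.01 counts in WT and 0 to 26 in R442Q. Elf5, an ETS factor, was at 0 in all WT zygotes and at 1 and 2 counts in R442Q replicates 4 and 5. These 3 did not pass the filter on low counts. Without the filter their edgeR adjusted p was 0.160 for Cdx2, 0.237 for Eomes and 0.303 for Elf5.

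Genes around the members were given by lists of other trophectoderm genes (20), Hippo and Notch input to Cdx2 (15), FGF signalling (13) and partners of keratin filaments (10). In zygotes 0 of 11 tested trophectoderm genes, 0 of 12 Hippo and Notch genes and 0 of 5 keratin partners passed, with 3, 0 and 1 at an unadjusted p under 0.05 in edgeR, as 27.1% of all genes. DESeq2, which also tested genes of lower counts, called 2 of 18, 1 of 15 and 2 of 8 genes in these 3 lists, against 13.5% of the 16341 genes it tested. Krt7, at 0 counts in all 5 WT zygotes and 0 to 16 in R442Q, was counted in both the trophectoderm and the keratin list. In the FGF list 1 of 8 rose, where 13.2% of all genes passed and 6.3% rose. It was Dusp6, a phosphatase that turns down ERK signalling and is induced by it. Dusp6 averaged 11.2 ± 6.86 CPM over 6 R442Q zygotes against 2.33 ± 1.53 CPM over 5 WT zygotes (SD), a log2 fold change of 2.38 ± 0.59 with an edgeR adjusted p of 0.013, which was 0.109 in a joint fit with late 2-cell embryos, where 270 of 16199 genes passed. DESeq2 called 4 of 12 genes in that list. The lists' median log2 fold changes were between 0.02 and 0.19, against 0.01 over all genes tested.

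In late 2-cell embryos, at the time of genome activation, none of the 7 members tested was called between the genotypes. None had an unadjusted p under 0.05 in edgeR, against 21% of all genes, and DESeq2 called 0 as well, while 4.18% of 13883 genes passed, 1.22% upward and 2.95% downward. These shares rest on 580 calls, which were 142 without WT replicate 2, 209 without WT replicate 4, 283 without WT replicate 3, 351 without WT replicate 1, 372 without R442Q replicate 2 and 891 without R442Q replicate 3, with 0 members called each time. Gata3 had 68, 37, 42 and 27 counts in WT replicates 1 to 4 and 14, 23, 3, 19 and 39 in R442Q replicates 1 to 5. In CPM the genotypes did not overlap, as for 12.4% of all genes, with a mean ± SD of 6.86 ± 2.87 CPM over 4 WT and 2.90 ± 1.54 CPM over 5 R442Q embryos. The log2 fold change was -1.10 ± 0.81 with an adjusted p of 0.475. In the joint fit of both stages it was -1.15 with an adjusted p of 0.0495, the 1 of 8 members called there, where 2507 of 16199 genes passed. Over all alternatives for Gata3 the adjusted p ran from 0.0495 to 0.717. In FPKM the genotypes overlapped, with 6.63, 1.70, 2.02 and 1.44 in WT and 0.78, 1.28, 0.16, 1.75 and 1.40 in R442Q.

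The keratins varied widely between late 2-cell embryos of both genotypes. Krt8 counts were 131.44, 8.4, 174.91 and 9 in WT and 10, 133, 92.5, 16 and 88 in R442Q embryos. Krt18 counts were 196, 35, 164 and 26 in WT and 42, 140, 249, 225 and 307 in R442Q. WT replicates 2 and 4 and R442Q replicate 1 were low in both keratins, and R442Q replicate 4 was low in Krt8 alone. The log2 fold change was 0.91 ± 0.63 for Krt18 (edgeR adjusted p 0.443) and -0.17 ± 0.93 for Krt8 (adjusted p 0.942), whose sign turned in limma on FPKM (0.10).

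Among the other factors, Tfap2c had 478, 881, 459 and 517 counts in WT and 678, 365, 183, 190 and 722 in R442Q late 2-cell embryos (log2 fold change -0.36 ± 0.43, edgeR adjusted p 0.686). Gata2 had 167, 71, 103 and 16 counts in WT and 17, 67, 91, 40 and 167 in R442Q (-0.23 ± 0.67, adjusted p 0.884). Eomes had 19, 21, 79 and 4 against 39, 8, 39, 42 and 70 (0.42 ± 0.87, adjusted p 0.833). The genotypes overlapped for each of them. Fgfr2 had 152, 74, 71 and 91 counts in WT and 17, 109, 70, 71 and 88 in R442Q (-0.39 ± 0.55, adjusted p 0.745, with a value of 0.0044 in limma on FPKM). Tfap2a, at 1 to 18.2 counts in WT and 0 to 23.24 in R442Q, and Elf5, with 7 counts in R442Q replicate 3 alone, were too low to be tested. At 0 counts, a floor of 3 counts per library limits Cdx2 to between 0.336 and 0.524 CPM in these 9 embryos, counting error only.

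The lists around the members held 4 late 2-cell calls in edgeR, in a comparison that called 4.18% of all genes. Id2, an inhibitor of bHLH factors, was higher in R442Q, at 250.5 ± 120 CPM (SD, n = 5) against 63.3 ± 25.3 CPM in WT (SD, n = 4), a log2 fold change of 2.10 ± 0.42 with an edgeR adjusted p of 0.016. Mbnl3, an RNA-binding protein of the muscleblind family, stood at 19.5 ± 14.3 CPM in WT and 73.6 ± 36.1 CPM in R442Q (2.03 ± 0.48, adjusted p 0.033). These 2 were the calls among 16 tested trophectoderm genes, beside 1.22% of all genes called higher. Among 14 Hippo and Notch genes, Nf2, the upstream Hippo activator Merlin, was lower in R442Q, at 48.1 ± 16.0 CPM against 166.5 ± 41.9 CPM in WT (-1.69 ± 0.34, adjusted p 0.015). Mob1a, the co-activator of the LATS kinases, was at 92.9 ± 13 CPM against 202.6 ± 24.0 CPM (-1.02 ± 0.27, adjusted p 0.046), beside 2.95% of all genes called lower. None of 12 FGF genes and 7 keratin partners passed in edgeR, with 1 and 0 at an unadjusted p under 0.05. DESeq2, which called 15% of the genes it tested here, called Id2 and Mbnl3 of 14 trophectoderm genes, 0 of 12 FGF genes and 0 of 5 keratin partners. Of 12 Hippo and Notch genes it called Mob1a, Nf2 and Yap1, the last of which is named after its values were seen and had an edgeR log2 fold change of -0.85 ± 0.31 (adjusted p 0.129).

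These 4 calls were less firm than that of Krt18 in zygotes. Without WT replicate 2 or WT replicate 4 the edgeR adjusted p was 0.0718 and 0.0625 for Id2 and 0.0682 and 0.0513 for Nf2. In limma on FPKM the Nf2 difference was -0.70 with an adjusted p of 0.307. For Mbnl3 it was 0.111 without WT replicate 2, 0.0870 without WT replicate 3, 0.105 without WT replicate 4 and 0.0614 without R442Q replicate 5. Mob1a lost the call in 8 of the 9 fits that left out 1 embryo, all but that without R442Q replicate 3. In limma on FPKM the Mob1a difference was 0.0013, and its FPKM of 85.9 ± 16.0 in WT and 88.6 ± 30.5 in R442Q did not show the difference seen in counts. Summed FPKM of the 10 cumulus cell markers was 0.14 to 7.61 in WT and 2.53 to 27.84 in R442Q late 2-cell embryos. Of these markers edgeR tested 1 and called 0. The part of cumulus RNA in the 4 calls was not tested.

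From zygote to late 2-cell embryo, the interval in which maternal RNA is lost and the embryo's own genes switch on, 4 members rose and 1 fell in WT embryos. Krt18, Eomes, Gata2 and Krt8 rose, while Gata3 fell. Of the 8 members tested, these 5 passed, where 61.2% of all 16199 genes did, 36.2% upward and 25% downward. The median log2 change of all genes was 0.34, and it moved to 0.43 with library totals as the only scaling. Each stage had its own table, and the effects of stage and table cannot be told apart.

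Krt18 showed the largest fitted rise in WT, with a log2 change of 4.37 ± 0.73 (edgeR adjusted p 2.1e-05). Summed over embryos, 29 Krt18 counts in WT zygotes stood against 421 in WT late 2-cell embryos, a ratio per total count of 23.4 with an exact 95% interval for counting error of 16.0 to 35.4. Krt8 rose by 2.91 ± 0.95 (adjusted p 0.011), a call that was lost without WT late 2-cell replicate 3, at 2.03 and an adjusted p of 0.0764. Eomes had 11 counts in all WT zygotes and 123 in WT late 2-cell embryos, 79 of them in replicate 3. The ratio was 18.0 with an interval of 9.72 to 37.0 for counting error alone. The fitted log2 change of Eomes was 3.96 ± 1.09 (edgeR adjusted p 0.0034). Gata2 rose by 3.09 ± 0.89 (adjusted p 0.0046).

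Gata3 went the other way. It fell from 36.0 ± 4.71 CPM in WT zygotes (SD, n = 5) to 6.86 ± 2.87 CPM in WT late 2-cell embryos (SD, n = 4), a log2 change of -2.49 ± 0.41 with an edgeR adjusted p of 1.5e-05. Tfap2c did not pass in WT, at 74.0 ± 11.9 and 91.0 ± 25.6 CPM (0.23 ± 0.33, adjusted p 0.549), and nor did Tfap2a (-0.63 ± 1.08, adjusted p 0.626). Fgfr2 had a log2 change of -0.64 ± 0.40 (adjusted p 0.168), which passed without WT late 2-cell replicate 1 (-1.05, adjusted p 0.0454) and without R442Q late 2-cell replicate 1 (-0.79, adjusted p 0.0442).

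In R442Q embryos the same test called 4 members, 2 higher and 2 lower, where 65.1% of all genes passed, 35.3% upward and 29.8% downward. Gata3 fell from 36.7 ± 4.96 CPM (SD, n = 6) to 2.90 ± 1.54 CPM (SD, n = 5), a log2 change of -3.82 ± 0.39 (edgeR adjusted p 1.4e-08). Fgfr2 fell from 20.5 ± 6.17 to 11.1 ± 5.74 CPM (-1.09 ± 0.37, adjusted p 0.0125). Krt18 rose from 5.34 ± 2.16 to 29.0 ± 13.6 CPM (2.22 ± 0.59, adjusted p 0.0022), and Eomes rose by 2.24 ± 0.91 (adjusted p 0.034). The Eomes call was lost in 7 of 25 alternatives, among them the fits without R442Q zygote replicate 1, 3, 4, 5 or 6 and without R442Q late 2-cell replicate 5, where the adjusted p was between 0.0513 and 0.0624.

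Gata2 and Krt8 lay close to the threshold in R442Q embryos. Gata2 had a log2 change of 1.72 ± 0.77 (edgeR adjusted p 0.053, range 0.0243 to 0.121 over its alternatives) and Krt8 of 1.75 ± 0.83 (adjusted p 0.067, range 0.0380 to 0.210). Both passed with library totals as the only scaling and in DESeq2, so 6 members were called there. Tfap2c (-0.23 ± 0.30, adjusted p 0.510) and Tfap2a (-0.38 ± 0.97, adjusted p 0.742) did not pass.

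Whether the change between stages differed with the injected CHK1 was tested as an interaction. None of the 8 members passed in edgeR, with 2 at an unadjusted p under 0.05 against 24.7% of all genes, and DESeq2 called 0; 10.1% of all genes passed, 3.07% upward and 7.05% downward. The 2 were Gata3, whose fall was larger in R442Q by 1.33 on the log2 scale (interaction -1.33 ± 0.52, unadjusted p 0.017, adjusted p 0.105), and Krt18, whose rise was smaller (-2.15 ± 0.90, unadjusted p 0.026, adjusted p 0.137). The median interaction of all genes was -0.16, and -0.01 with size factors by relative log expression. So the genotype effect on Krt18 in zygotes was not shown to differ from that in late 2-cell embryos.

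Among 14 tested Hippo and Notch genes, 5 rose and 0 fell in WT, and 3 rose and 2 fell in R442Q, beside 61.2% and 65.1% of all genes that passed in either direction. Wwtr1, the co-activator TAZ, went from 1.58 ± 0.714 to 67.5 ± 3.91 CPM in WT and from 2.36 ± 1.07 to 62.8 ± 14.2 CPM in R442Q (edgeR log2 changes 5.32 ± 0.40, adjusted p 1.4e-10, and 4.55 ± 0.35, adjusted p 1.2e-10). Tead4, its DNA-binding partner, had 0 to 5 counts in WT and 0 to 11 in R442Q zygotes, against 103 to 310 and 18 to 443 in late 2-cell embryos (adjusted p 5.2e-06 and 2.0e-05). So at the late 2-cell stage Tead4 and Wwtr1 transcripts were present in every embryo while Cdx2 was at 0 counts in all 9. Mob1a and Nf2, which act on the side of Hippo signalling, were also called higher in WT. Their means went from 36.86 to 202.6 CPM and from 43.95 to 166.5 CPM. Amotl2 was the remaining WT call. In R442Q Mob1a rose as well, from 29.36 to 92.87 CPM, Nf2 was not called, and the 2 that fell were Yap1 and Rbpj. The part of these changes in the absence of Cdx2 counts was not tested.

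Of 20 other trophectoderm genes, 10 rose and 4 fell in each genotype, a share near the 61.2% and 65.1% of all genes that passed. Grhl2, a grainyhead factor of epithelia, went from 6.34 ± 2.00 to 67.5 ± 13.9 CPM in WT (3.33 ± 0.34, edgeR adjusted p 1.6e-08) and from 6.62 ± 2.57 to 40.7 ± 9.27 CPM in R442Q (2.41 ± 0.30, adjusted p 2.6e-07). In the FGF list 8 of 12 rose and 2 fell in WT, and 7 rose and 4 fell in R442Q. Of 9 keratin partners 6 rose and 0 fell in WT, and 4 rose and 1 fell in R442Q. Over all genes 36.2% rose and 25% fell in WT, and 35.3% rose and 29.8% fell in R442Q. The interaction called 0 genes higher in these 4 lists. Lower were 1 of 20 trophectoderm genes, 3 of 14 Hippo and Notch genes, 4 of 12 FGF genes and 1 of 9 keratin partners. Over all genes 7.05% were called lower. The trophectoderm call and the keratin call were the same gene, Krt7. Nf2 had the lowest p of the Hippo and Notch genes (-1.78 ± 0.35, adjusted p 0.0026).

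In blastocysts a whole embryo was 1 sample, so fewer trophectoderm cells and less RNA per cell cannot be told apart. The stage label was checked against markers: all 10 members had a mean FPKM of at least 1 in both genotypes, as did 18 of 20 other trophectoderm genes and 13 of 13 epiblast genes. None of 6 genes of later placental trophoblast did. The keratins together took between 0.102% and 2.33% of the FPKM sum of an embryo, with a median of 0.460%. The ratio of Krt18 to Krt8 FPKM ran from 0.964 to 2.94, with a median of 1.28.

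The keratins gave the widest absolute range. Krt8 FPKM was 1300 at the lowest, 2540 at the median and 11565 at the highest in WT blastocysts, and 505.4, 1909 and 4485 in R442Q blastocysts. Krt18 was 1681, 3628 and 12391 in WT and 588.3, 2736 and 7859 in R442Q. The highest keratin values were those of WT replicate 2 and the lowest those of R442Q replicate 3, and the rest overlapped. The log2 difference of R442Q from WT, on the log2(FPKM + 1) scale, was -0.90 ± 0.48 for Krt8 (limma adjusted p 0.733) and -0.69 ± 0.50 for Krt18 (adjusted p 0.822).

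No difference between the genotypes was shown for any of the 10 members in blastocysts, which does not mean equal levels. None passed after adjustment in limma, none had an unadjusted p under 0.05, and no member's genotypes failed to overlap, while 0.00885% of 11297 genes passed, 7.4% had an unadjusted p under 0.05 and 0.416% did not overlap. The median difference of the members was -0.65, against -0.10 over all genes tested. It was -0.67 for the FGF list, -0.60 for the epiblast list, -0.29 for the other trophectoderm genes and -0.01 for the keratin partners. Leaving out each embryo in turn, R442Q replicates 3 and 7 included, gave 0 calls each time. No count test could be run here, since only FPKM was used.

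Among the transcription factors, Cdx2, the homeodomain factor of the lineage, had FPKM of 7.47, 12.32 and 51.02 (lowest, median and highest) in WT and 0.21, 13 and 26.62 in R442Q blastocysts. The difference was -0.93 ± 0.65 (limma adjusted p 0.815). Gata3 was 128.5, 258.3 and 597.9 in WT and 66.82, 280.1 and 498.6 in R442Q (-0.13 ± 0.41, adjusted p 0.968). Gata2 was 2.69, 16.50 and 45.04 against 0.22, 17.93 and 43.26 (-0.32 ± 0.71, adjusted p 0.957). The lowest Gata3 and Gata2 values, both of R442Q replicate 3, stood alone below the WT range, whereas Cdx2 was below it in R442Q replicates 3, 4 and 7, at 4.74, 2.32 and 0.21.

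Eomes was 4.43, 7.42 and 14.15 FPKM in WT and 4.37, 11.98 and 22.03 in R442Q blastocysts (0.36 ± 0.39, limma adjusted p 0.893). Elf5 was 0.94, 8.79 and 13.44 in WT and 0.14, 2.91 and 13.61 in R442Q (-0.91 ± 0.56, adjusted p 0.784). Tfap2a was 1.88, 3.30 and 11.02 against 0.41, 3.17 and 5.73 (-0.61 ± 0.44, adjusted p 0.819). Tfap2c was 12, 46.44 and 64.50 in WT and 26.91, 48.32 and 79.87 in R442Q (0.58 ± 0.39, adjusted p 0.811), and its highest value belonged to R442Q replicate 3, the embryo lowest in Gata3, Gata2, Krt8 and Krt18. Fgfr2 was 14.30, 25.30 and 43.13 in WT and 7.53, 19.15 and 27.20 in R442Q, with the lowest unadjusted p of the members (-0.71 ± 0.35, unadjusted p 0.059, adjusted p 0.688).

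The other lists likewise held 0 calls in limma: 0 of 17 trophectoderm genes, 0 of 11 Hippo and Notch genes, 0 of 7 FGF genes and 0 of 8 keratin partners, with 0, 1, 2 and 0 at an unadjusted p under 0.05. Their most abundant genes were Id2 at a mean FPKM of 1023 ± 584, Rbpj, the Notch effector, at 32.4 ± 16.6, Spry2, an inhibitor of receptor signalling, at 21.5 ± 13.6 and Krt7 at 42.2 ± 72.9 (SD, n = 14). Krt7 was 289.9 in WT replicate 2, the embryo also highest in Krt8 and Krt18, and 2.26 to 58.43 in the other 13.

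**Figure D3:**
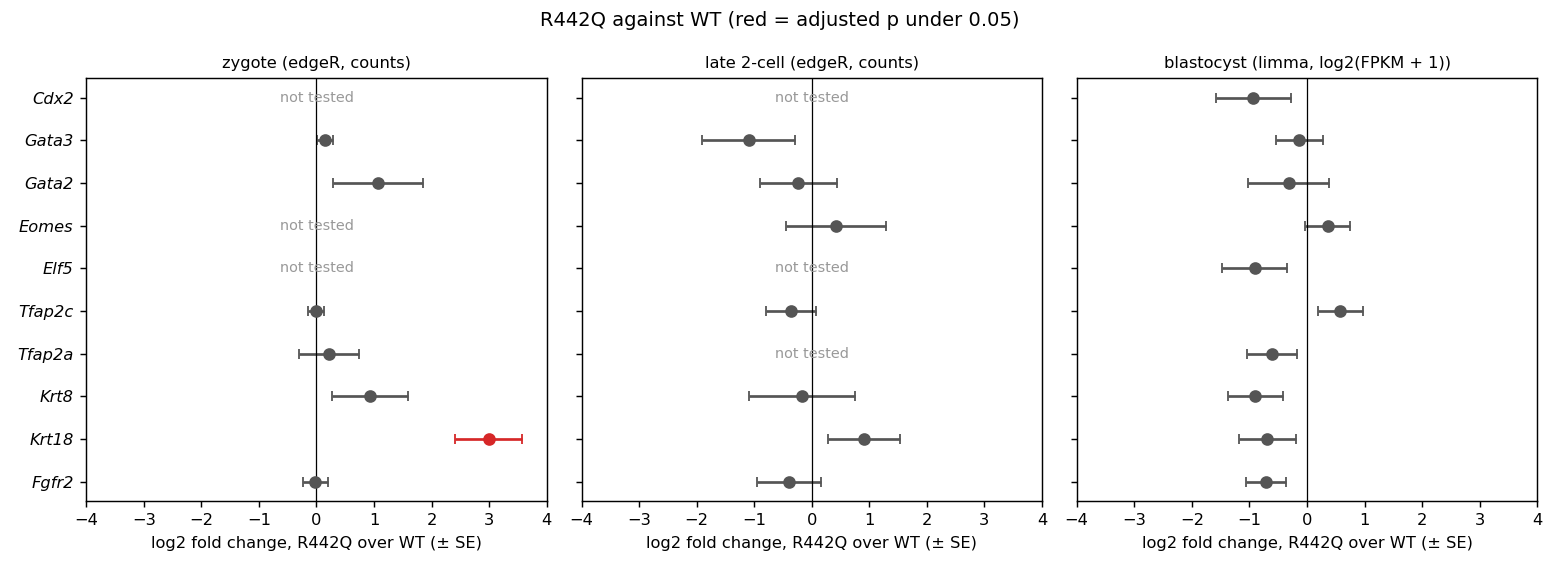
Log2 fold change of R442Q over WT (horizontal axis, points with SE bars) for each member in zygotes, late 2-cell embryos and blastocysts; red marks an adjusted p under 0.05 and members too low to test are marked. Krt18 in zygotes, at 2.99 ± 0.59, is the only call.

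The members differed in how much they varied between blastocysts. Each member's SD of log2(FPKM + 1) over the 14 embryos was set beside the median SD of genes whose mean FPKM lay within 2-fold of its own. Krt8 and Krt18 had SDs of 1.11 and 1.11, against 0.34 and 0.36, and exceeded 93.1% of 101 and 93.5% of 77 such genes. Gata2 (1.46 against 0.77), Cdx2 (1.39 against 0.82) and Gata3 (0.84 against 0.42) exceeded 90.9%, 87.8% and 88.8% of theirs. Eomes (0.70 against 0.89), Tfap2a (0.82 against 0.94) and Fgfr2 (0.72 against 0.75) lay at or below the median, while Elf5 (1.17 against 0.96) and Tfap2c (0.81 against 0.62) were between. From the lowest to the highest embryo Cdx2 spanned 243-fold and Gata2 205-fold, but Eomes 5.04-fold. Without the lowest embryo of each gene the spans were 22.0-fold for Cdx2, 16.7-fold for Gata2 and 4.97-fold for Eomes.

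The extremes lay in few embryos. R442Q replicate 3 was among the lowest 2 embryos for 7 of the 10 members, although 11953 genes were detected in it. R442Q replicate 7 was among the lowest 2 for 4 members, with the fewest genes detected, 8189. WT replicates 3 and 6 were among the highest 2 for 4 members each. WT replicate 2 was highest in both keratins and among the lowest 2 for 2 other members, Gata2 at 2.69 and Eomes at 4.43.

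**Figure D4:**
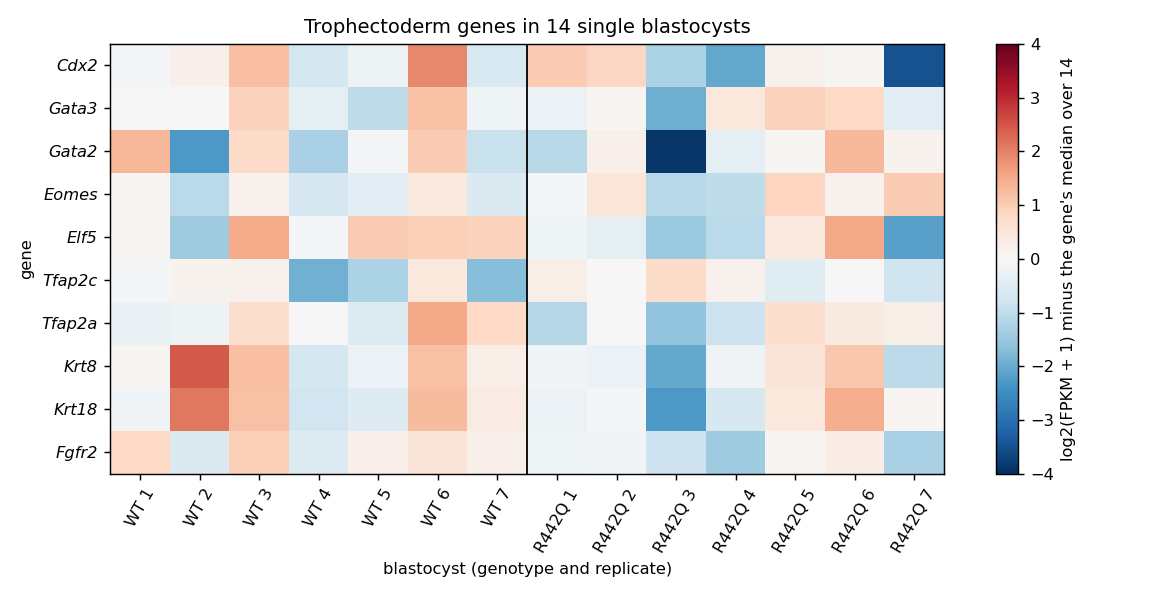
Level of each member in each of the 14 blastocysts as log2(FPKM + 1) minus the gene's median over the 14 (colour, blue below and red above; the scale ends at 4 in either direction), WT left of the line and R442Q right. R442Q replicate 3 is among the 2 lowest embryos in 7 of 10 members, and WT replicate 2 is high in Krt8 and Krt18 but low in Gata2.

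Members were then compared pair by pair across the 14 blastocysts, as 45 Pearson correlations of log2(FPKM + 1) with permutation p-values adjusted over the 45. Of these, 42 were positive, with a median r of 0.46, and 10 passed an adjusted p of 0.05. No share over pairs of other genes was computed, so these counts are not shown to be particular to the members. All embryos share 1 normalisation, in which each value is relative to the rest of the embryo's RNA. Krt8 and Krt18, which pair in 1 filament, had an r of 0.94 (rho 0.84, permutation p 1e-05, the smallest these permutations can give, adjusted p 4.5e-04; for rho the permutation p was 3.5e-04). Their r was 0.85 without the 2 embryos farthest from the median of Krt8, 0.93 with genotype means removed, 0.99 in WT alone (exact adjusted p 0.018) and 0.89 in R442Q alone (exact adjusted p 0.0759). Elf5 and Fgfr2, the receptor for the FGF signal that trophoblast stem cells need, had an r of 0.85 (rho 0.85, permutation p 1.1e-04, adjusted p 0.0025), and 0.82 without the 2 farthest embryos.

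For the other 8 pairs that passed, r was lower as well without the 2 farthest embryos. These were the 2 farthest from the median of the first gene named, so the cut narrows that gene's range. Gata3 correlated with Krt18 (r 0.74, rho 0.64), Tfap2a (0.74, 0.60), Gata2 (0.72, 0.61) and Krt8 (0.72, 0.72), with permutation p-values of 0.0029, 0.0027, 0.0043 and 0.0049 and adjusted p-values of 0.026, 0.026, 0.028 and 0.028. Without the 2 farthest embryos these r were 0.49, 0.44, 0.40 and 0.49. Cdx2 correlated with Fgfr2 (r 0.77, rho 0.61, permutation p 0.0013, adjusted p 0.019) and Elf5 (r 0.66, rho 0.47, permutation p 0.010, adjusted p 0.045), with r of 0.52 and 0.35 without the 2 farthest. Eomes with Gata2 (r 0.69, rho 0.73, permutation p 0.0050, adjusted p 0.028) and Tfap2a with Krt18 (r 0.68, rho 0.69, permutation p 0.0071, adjusted p 0.036) had r of 0.48 and 0.44 without them. Only Krt8 with Krt18 and Elf5 with Fgfr2 passed without the 2 farthest embryos. Leaving out R442Q replicate 3 gave 2 passing pairs, and leaving out WT replicate 3 or WT replicate 6 gave 3 each, whereas leaving out WT replicate 2 gave 19 and R442Q replicate 7 gave 15. Tfap2c correlated with none of the others, its r running from -0.24 with Tfap2a to 0.30 with Cdx2.

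**Figure D5:**
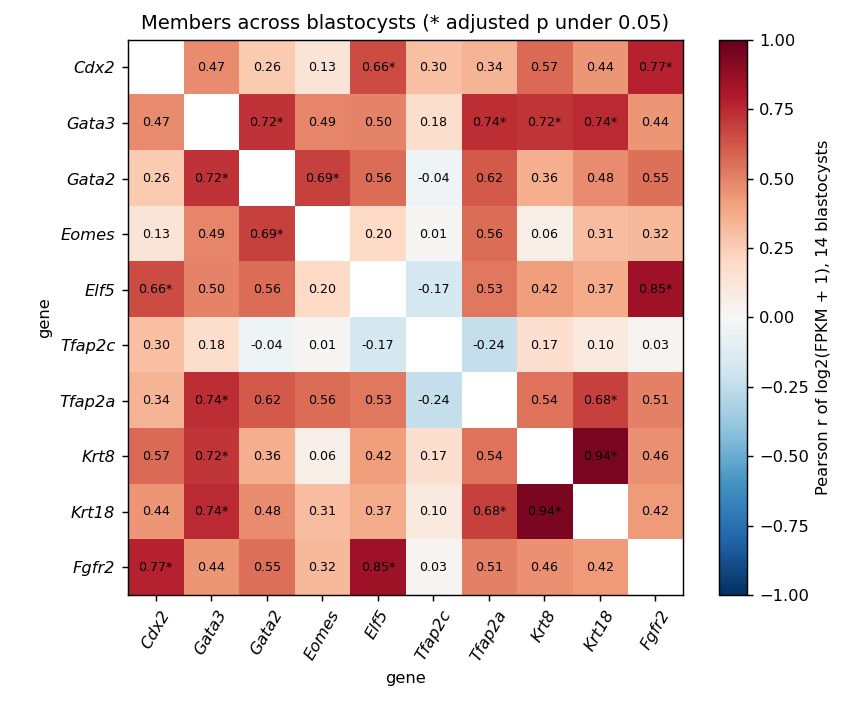
Pearson r of log2(FPKM + 1) over 14 blastocysts for each pair of members, printed in the cells and coloured from blue (negative) to red (positive); stars mark adjusted permutation p under 0.05. Krt8 with Krt18 at 0.94 and Elf5 with Fgfr2 at 0.85 are highest, and the row of Tfap2c is pale.

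The members were also set against Nanog and Sox2 of the epiblast, Gata6 and Sox17 of the primitive endoderm, and the number of genes detected, in 50 further correlations adjusted together. None passed, and 5 had an unadjusted permutation p under 0.05. The lowest was Elf5 with Gata6 (r -0.68, permutation p 0.0084, adjusted p 0.293).

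Genes whose level followed a member most closely were ranked by Pearson r over the 14 blastocysts among 6001 genes with a mean FPKM of at least 10, as a description. For Cdx2 they were Cenpv (0.90), Zfp950 (0.89), Mtmr4 (0.88), Atp6v1h (0.88) and 2210409E12Rik (0.88). For Gata3 they were Slc44a4 (0.90), Gm12173 (0.90), Necap2 (0.89), Emp2 (0.88) and Gm4926 (0.87), and for Krt8 Atxn10, Sptlc2, Sgk1 and Tpi1 (each 0.89) and Arhgap8 (0.87). No gene occurred in more than 1 of the 3 sets, and the highest r of Krt8 outside the members lay below its 0.94 with Krt18.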

How the data were processed

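Libraries of single embryos were made with SMART-seq2 and Tn5 and sequenced on a HiSeq X-10, per the labels' protocols. Expected counts per gene, as deposited for zygotes and late 2-cell embryos, and FPKM, which the authors had normalised to length and library size, were used as deposited. The submitters' processing notes name RSEM and mm10. The aligner, the annotation and the use of strand are not given in the sources used here. Counts were rounded to whole numbers. R442Q and WT were compared within each stage in edgeR 4.0.16 (R 4.3.3) with filterByExpr at a minimum count of 10, scaling by trimmed mean of M values (TMM) and the quasi-likelihood test, so that each deposited table was tested alone. Changes between stages and their interaction came from a fit of the 4 groups. For blastocysts limma 3.58.1 was fitted to log2(FPKM + 1) with its trend option. Genes had to reach an FPKM of 1 in 7 or more embryos, and fold changes on this scale understate low genes. SEs of edgeR were taken from the fold change and its F statistic. A Benjamini-Hochberg adjusted p under 0.05, over all genes tested, was required. Correlations used 100000 permutations in scipy 1.17.1, and all permutations within a genotype. The scripts were tested on simulated data.

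All 10 members were named at every stage. From the 4 lists around the members, edgeR calls between the genotypes were named, up to 4 by p. Of the calls between stages and for the interaction, only some were named. In blastocysts the most abundant genes of a list were named. The genes most like Cdx2, Gata3 and Krt8 were the 5 with the highest r. The members and lists were chosen with earlier results of these data known. Gene symbols matched GENCODE M21 for 98.4% of the zygote and late 2-cell rows and 92.1% of the blastocyst rows. Shared sequence was counted in stretches of 50 bases. Alternatives were other scalings (relative log expression (RLE) size factors, library totals only, FPKM rescaled), filters and a pseudocount of 0.1, DESeq2 1.42.0, limma on FPKM, a joint fit, replicate blocks and leaving out each embryo. Intervals and floors reflect counting alone: without molecular identifiers, amplified reads do not count single molecules.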

Additional observations from a re-analysis of the deposited data

Results flagged for a closer look

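In groups of 4 to 10 embryos, 4 values of 51 group and gene combinations checked stood apart from the rest of their group by Dixon's 95% criterion, and chance flags about 1 in 20 groups. Krt8 FPKM in WT blastocyst replicate 2 was 11565.2, against 1300 to 4811 in the other WT blastocysts. Elf5 FPKM in R442Q blastocyst replicate 6 was 13.61, against 0.14 to 5.74 in the other R442Q blastocysts. Gata3 FPKM in WT late 2-cell replicate 1 was 6.63, against 1.44 to 2.02 in the other WT embryos of that stage. Eomes FPKM in R442Q late 2-cell replicate 2 was 0.4, against 1.88 to 2.34 in the others.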

How the results depend on the processing

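Of 32 results past the threshold, 610 of 700 alternative values kept direction and call, 89 lost the call and 1 turned sign, that of Mob1a in late 2-cell embryos with limma on FPKM (0.0013). Of 38 results not past it, 733 of 783 values stayed so, 17 passed and 33 turned sign. Krt18 in zygotes stayed called in all 18 alternatives, with log2 values from 1.69 to 3.52. The joint fit called 1 member in late 2-cell embryos against 0, and 2507 genes against 580. The count of passing pairs was 1 in WT blastocysts alone, 0 in R442Q alone, 2 without the 2 farthest embryos and between 2 and 19 with 1 embryo left out. Over all genes DESeq2 called 1854 against 580 in late 2-cell embryos and 2527 against 1639 for the interaction, and no filter gave 889 in late 2-cell embryos. With 1 embryo left out the calls over all genes ran from 142 to 891 in late 2-cell embryos, from 1089 to 2311 for the interaction and from 0 to 30 in blastocysts. In zygotes the joint fit called 270 against 1643. TMM scaling called 5 genes in blastocysts against 1. The causes were not tested. Sign turns at other settings, all of uncalled values, were Tfap2c in zygotes (0.0030 with RLE size factors, 0.025 in the joint fit), Fgfr2 in zygotes (0.013 in the joint fit), and, with limma on FPKM in late 2-cell embryos, Fgfr2 (0.0044) and Krt8 (0.10). With 1 embryo left out, log2 values that turned sign ran from -0.052 to 0.59 for Tfap2a, -0.11 to 0.066 for Tfap2c and -0.16 to 0.10 for Fgfr2 in zygotes. They ran from -0.59 to 0.23 for Gata2 and -0.72 to 0.53 for Krt8 in late 2-cell embryos, and from -0.67 to 0.24 for Gata2 and -0.32 to 0.18 for Gata3 in blastocysts. For Tfap2c between stages they ran from -0.17 to 0.30 in WT and -0.61 to 0.040 in R442Q, and for the Tfap2a interaction from -0.40 to 1.14. With library totals as the only scaling the median of all genes in zygotes moved from 0.01 to -0.11.

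Deviations of same-numbered embryos of the genotypes had correlations of -0.06 to 0.06 in zygotes. In late 2-cell embryos they were -0.14 to 0.20, and in blastocysts -0.17 to 0.20. The numbers are those of the sample titles, and some zygotes and late 2-cell embryos bear another number in their description. Pairing by those other numbers was not tested. With the replicate number as a replicate block, 1 member was called in zygotes (Krt18, adjusted p 0.024), 0 in late 2-cell embryos, 0 in blastocysts, 5 between stages in WT, 3 in R442Q and 0 for the interaction. Over all genes the block called 1205 in zygotes, 49 in late 2-cell embryos against 580, 0 in blastocysts and 1085 for the interaction. The late 2-cell calls of Id2, Mbnl3, Nf2 and Mob1a had adjusted p-values of 0.115, 0.114, 0.0777 and 0.138 under the block. Values that turned sign under the block were Fgfr2 in zygotes (0.10), Krt8 in late 2-cell embryos (0.073) and the Tfap2a interaction (-0.48). Depth limits Cdx2 and Elf5 before the blastocyst and Eomes in zygotes, where most embryos held few or 0 counts.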

Other observations

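Markers of the other blastocyst lineages were read in the same 14 embryos. Of 13 epiblast genes, Dppa5a was the most abundant at a mean FPKM of 17556 ± 6181 (SD, n = 14), above Krt18, followed by Utf1 at 277.3 ± 218 and Tdgf1 at 143.9 ± 113. Of 13 primitive endoderm genes, Dab2 led at 385.1 ± 198, ahead of Sox17 at 28.9 ± 49.4 and Lamb1 at 20.6 ± 16.4. None of the 13 epiblast and 11 primitive endoderm genes tested passed between the genotypes in limma, with 1 and 0 at an unadjusted p under 0.05. Sox17 ran from 0.09 in R442Q replicate 6 to 166.4 in WT replicate 5.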
